A study of Mus musculus with 9 samples.

Results

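Heme breakdown and iron handling were followed through 10 genes in mouse brain, 10 of the 38621 genes in the deposited table. The genes are a list of names, with no threshold on their values, that covers the route from heme to stored or exported iron. They were the heme oxygenases Hmox1 and Hmox2, the biliverdin reductase Blvrb, the heme carrier Hpx, the ferritin chains Fth1 and Ftl1, the iron importers Tfrc and Slc11a2, the exporter Slc40a1, and the ferroxidase Cp. RNA was sequenced from brain tissue of 9 male C57BL/6 mice, 3 in each of 3 groups. The ICH group modeled intracerebral hemorrhage with autologous blood injected into brain tissue. The feb group received febuxostat, a xanthine oxidase inhibitor used against gout, by gavage on the days before the same blood injection. The sham group received a saline injection according to the study's methods, whereas the sample labels call these mice untreated. The age of the mice, the dissected region, and the time from injection to RNA collection are not given in the sources used here. The autologous blood model places blood in the tissue without rupture of a vessel by disease. In bulk tissue, fewer cells of a type and less RNA per cell cannot be told apart.

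Heme is released from hemoglobin when red cells break down. Hpx binds free heme in plasma, and the heme oxygenases open the heme ring to give iron, carbon monoxide, and biliverdin, which biliverdin reductases convert to bilirubin. The freed iron is stored in ferritin shells of heavy (Fth1) and light (Ftl1) chains or leaves the cell through ferroportin (Slc40a1), helped by ferroxidases such as ceruloplasmin (Cp). Transferrin-bound iron enters through the transferrin receptor (Tfrc) and crosses the endosome membrane through Slc11a2. Hmox1 is the inducible heme oxygenase and is known as a gene that phagocytes and glia switch on when exposed to heme, while Hmox2 is the constitutive form of brain.

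Several of these mRNAs carry iron-responsive elements, stem-loops bound by iron regulatory proteins when iron is scarce. They are shown because they set what mRNA values can report. Binding in the 5' UTR of ferritin and ferroportin mRNAs blocks translation, which leaves no direct trace in an mRNA count, whereas binding in the 3' UTR of Tfrc mRNA protects it from decay. GENCODE M21 transcripts (GRCm38) were searched on the transcript strand for an unpaired C, 5 bases, the loop CAGTG followed by A, C, or T, and 5 bases that pair with the first 5, G-T pairs included. A match was found in 4 of the 10 genes, against 123 of 21901 protein-coding genes (0.562%). The pattern was written for the known element, which several of these mRNAs carry, so the matches were foreseen and the shares are no test of the list. Each stretch below has 30 bases, from 5' to 3' on the transcript strand, with the 6 loop bases in capitals. All 3 matches in 5' UTRs and all 4 in the Tfrc 3' UTR are given.
Fth1, 5' UTR, chr19:9982732-9982761, plus strand: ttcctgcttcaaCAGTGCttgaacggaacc
Ftl1, 5' UTR, chr7:45459778-45459807, minus strand: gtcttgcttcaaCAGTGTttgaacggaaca
Slc40a1, 5' UTR, chr1:45925464-45925493, minus strand: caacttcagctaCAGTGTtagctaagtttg
Tfrc, 3' UTR, chr16:32631219-32631248, plus strand: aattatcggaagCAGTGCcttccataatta
Tfrc, 3' UTR, chr16:32631598-32631627, plus strand: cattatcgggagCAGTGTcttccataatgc
Tfrc, 3' UTR, chr16:32631663-32631692, plus strand: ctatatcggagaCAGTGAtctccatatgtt
Tfrc, 3' UTR, chr16:32631710-32631739, plus strand: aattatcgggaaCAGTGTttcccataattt
A match to these letters is a description of the sequence and not a measurement of binding. Slc11a2 gave no match to this pattern. The pattern misses elements with other pairing, so no match does not show that an mRNA lacks the element.

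Between 23065757 and 29538009 reads per mouse fell on genes, and an RPKM of 0.102 to 0.130 stood for 3 reads per kilobase of exon. RPKM scales reads to exon length and to the total on genes, so levels can be set side by side between genes whose reads can be told apart. Neuron markers summed to an RPKM of 515 to 603 over all 9 mice, and every marker of that list passed the filter on low values. A few libraries or groups stood apart. The 7 blood and erythroid markers summed to 124 in ICH replicate 1 and to 26.8 and 27.8 in the other ICH mice, against 32.3 to 40.7 in sham and 17.2 to 21.7 in feb. ICH replicate 2 had the highest level of the astrocyte gene Gfap, 573, against 54.5 to 160 in the other 8 mice. The 8 choroid plexus markers summed to 365 to 1035 in sham, 458 to 967 in ICH, and 30.6 to 88.4 in feb. Of 5 markers of hepatocytes, which make plasma proteins, 3 passed the filter, and Alb and Serpina1a were at 0 in at least 1 mouse. The 5 summed to 351 to 1006 in sham, 438 to 938 in ICH, and 25.1 to 80.2 in feb. They include Ttr, which is also on the choroid plexus list and was 350 to 1005 in sham.

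No difference between groups was detected for any of the 9 heme and iron genes that could be tested. They were tested with limma on log2(RPKM + 0.1), a scale on which changes of low genes are understated, over 29025 genes that reached an RPKM of 0.1 in 3 or more mice. Hpx did not pass that filter. In each of the 3 comparisons, 0 of 9 genes had an unadjusted p under 0.05, and 0 passed Benjamini-Hochberg adjustment over all genes tested. With limma and voom on recovered reads, 0 of 9 also had an unadjusted p under 0.05 in each comparison. Among all genes tested, 12.3% had an unadjusted p under 0.05 in ICH vs sham (7.88% higher and 4.42% lower). The shares were 11.1% in feb vs ICH (4.9% higher, 6.16% lower) and 8.54% in feb vs sham (5.63% higher, 2.9% lower). The smallest adjusted p (limma) among the 9 genes was 0.432 in ICH vs sham and 0.494 in feb vs ICH, both for Ftl1, and 0.725 in feb vs sham, for Tfrc. The median log2 fold change of the 9 genes was 0.15, -0.08, and 0.07 in ICH vs sham, feb vs ICH, and feb vs sham, against 0.08, -0.01, and 0.05 over all genes tested. When the mice were scaled to equal medians, the median over all genes moved by -0.11 in ICH vs sham and by -0.11 in feb vs sham, so fold changes of that size depend on the scaling.

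The intervals show how large a change could have been missed. For 8 of the 9 genes, all but Hmox1, the 95% interval of the fold change lay inside 2-fold in every comparison. It lay inside 1.5-fold for 6 genes in ICH vs sham, 5 in feb vs ICH, and 7 in feb vs sham.

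**Figure D1:**
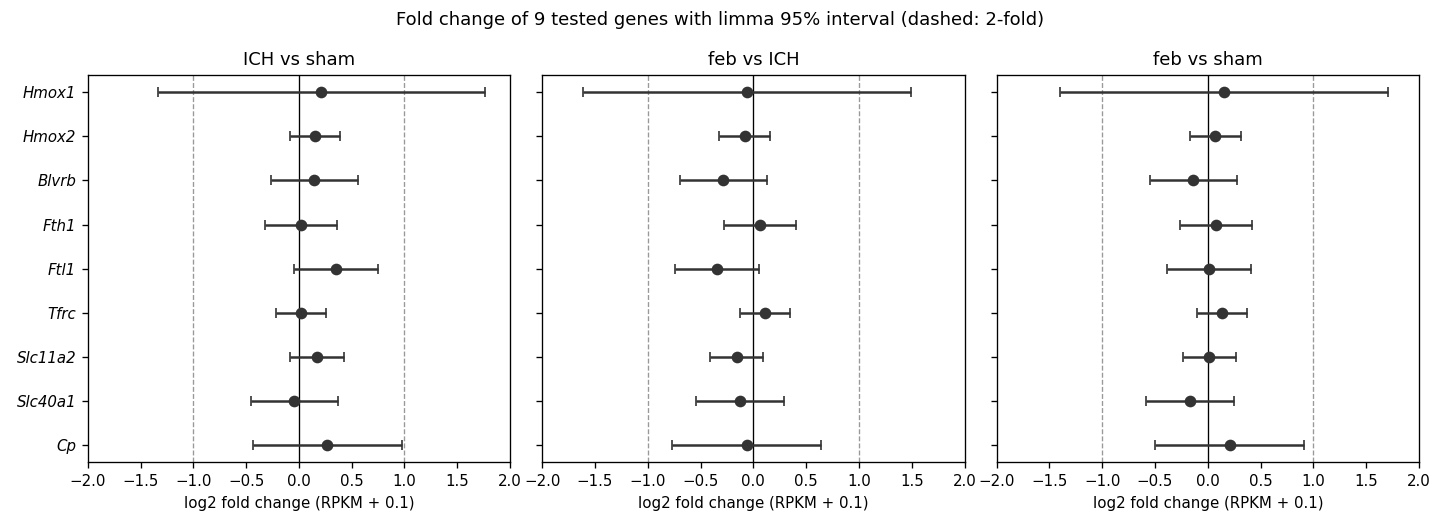
Log2 fold change (x axis, on log2(RPKM + 0.1)) of the 9 tested genes (y axis) in the 3 comparisons, one panel each. Points are limma estimates, bars are 95% intervals, and dashed lines mark 2-fold. Every interval crosses 0, and only the Hmox1 intervals reach past 2-fold, from -1.34 to 1.76 in ICH vs sham.

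Hmox1 (chr8:75093621-75100589, plus strand) varied several-fold among mice of the same group. Its RPKM was 4.70, 2.01, and 3.64 in sham replicates 1 to 3. It was 4.60, 6.86, and 1.70 in ICH, and feb had 5.29, 1.29, and 6.86. Each group thus held a mouse near or below 2, and the groups overlapped in full. These values rest on 57 to 316 reads per mouse. The log2 fold change was 0.21 in ICH vs sham (SE 0.68, adjusted p = 0.913, limma), an interval of 0.395-fold to 3.40-fold. It was -0.06 in feb vs ICH (SE 0.68, adjusted p = 0.987) and 0.15 in feb vs sham (SE 0.68, adjusted p = 0.959). The SD of Hmox1 within groups was 0.989 on the log2 scale. The median SD of the 3917 tested genes within 0.5 log2 of its mean level was 0.181, and 99.2% of them had a smaller SD than Hmox1.

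No relation of Hmox1 to the level of blood RNA in the sample was detected. In ICH replicate 1, the mouse with the highest blood markers, Hmox1 was 4.60, close to sham replicate 1. Over the 9 mice the log2 sum of blood markers and Hmox1 had a Pearson r of 0.04 (exact permutation p = 0.923, adjusted over 8 relations 0.923) and a Spearman rho of -0.22 (exact permutation p = 0.581). Leaving out the 2 mice with the most extreme blood markers gave an r of -0.03, and with both measures centred within groups it was 0.06.

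Hmox2 (chr16:4726361-4766742, plus strand) was far more even. Its RPKM was 26.9, 25.7, and 26.7 in sham, 28.5, 29.9, and 29.8 in ICH, and 30.1, 23.2, and 30.6 in feb. Each of the 3 ICH mice exceeded each sham mouse, while the feb mice spanned both groups. ICH and sham did not overlap in 19.4% of all genes tested, and in 13.2% ICH was the higher group. Its log2 fold change was 0.15 in ICH vs sham (SE 0.11, adjusted p = 0.542, limma), with an interval of 0.941-fold to 1.31-fold. It was -0.08 in feb vs ICH and 0.07 in feb vs sham. Feb replicate 2 had the lowest Hmox2 of all mice. Without it Hmox2 reached an unadjusted p under 0.05 in ICH vs sham (log2 0.15, adjusted p = 0.311) and in feb vs sham (log2 0.20, adjusted p = 0.253), and the same held for ICH vs sham in a fit of only those groups (log2 0.15, adjusted p = 0.382). In the annotation 40.2% of the Hmox2 exon bases lie opposite exons of Cdip1, and the strand setting of the counting is not given, so reads of the 2 genes may not be separable.

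The Hmox1 to Hmox2 ratio within a mouse, which does not depend on scaling, averaged -2.98 on the log2 scale in sham (SD 0.571, n = 3), -2.92 in ICH (SD 1.01, n = 3), and -2.90 in feb (SD 1.03, n = 3). The exact permutation p (two-sided) was 1 in ICH vs sham, 1 in feb vs ICH, and 0.9 in feb vs sham, where 0.1 is the smallest value that 3 mice against 3 allow. As a level per kilobase, the inducible enzyme was below the constitutive enzyme in 9 of 9 mice.

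Blvrb (chr7:27447978-27466144, plus strand), a biliverdin reductase, was low in all groups. Its RPKM was 1.83, 1.90, and 1.43 in sham, 1.94, 2.20, and 1.61 in ICH, and 1.83, 1.45, and 1.37 in feb. ICH vs sham gave a log2 fold change of 0.15 (SE 0.18, adjusted p = 0.732, limma) and feb vs ICH one of -0.29 (SE 0.18, adjusted p = 0.580). The highest and lowest values came from an ICH and a feb mouse, but the groups overlapped. Blvra, another biliverdin reductase, was higher, with a mean of 5.42 in sham, 4.54 in ICH, and 4.34 in feb. The level of Blvrb alone thus does not describe that step.

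Hpx (chr7:105591613-105600137, minus strand), the plasma heme scavenger that the liver makes in bulk, was at the limit of detection in this tissue. It had 0 to 3 reads per mouse. Its RPKM was 0.0226, 0.0510, and 0.0237 in sham, 0.0272, 0.0761, and 0.0255 in ICH, and 0.0504, 0, and 0.0289 in feb. With so few reads no difference was detectable at this depth, and no fold change is given.

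**Figure D2:**
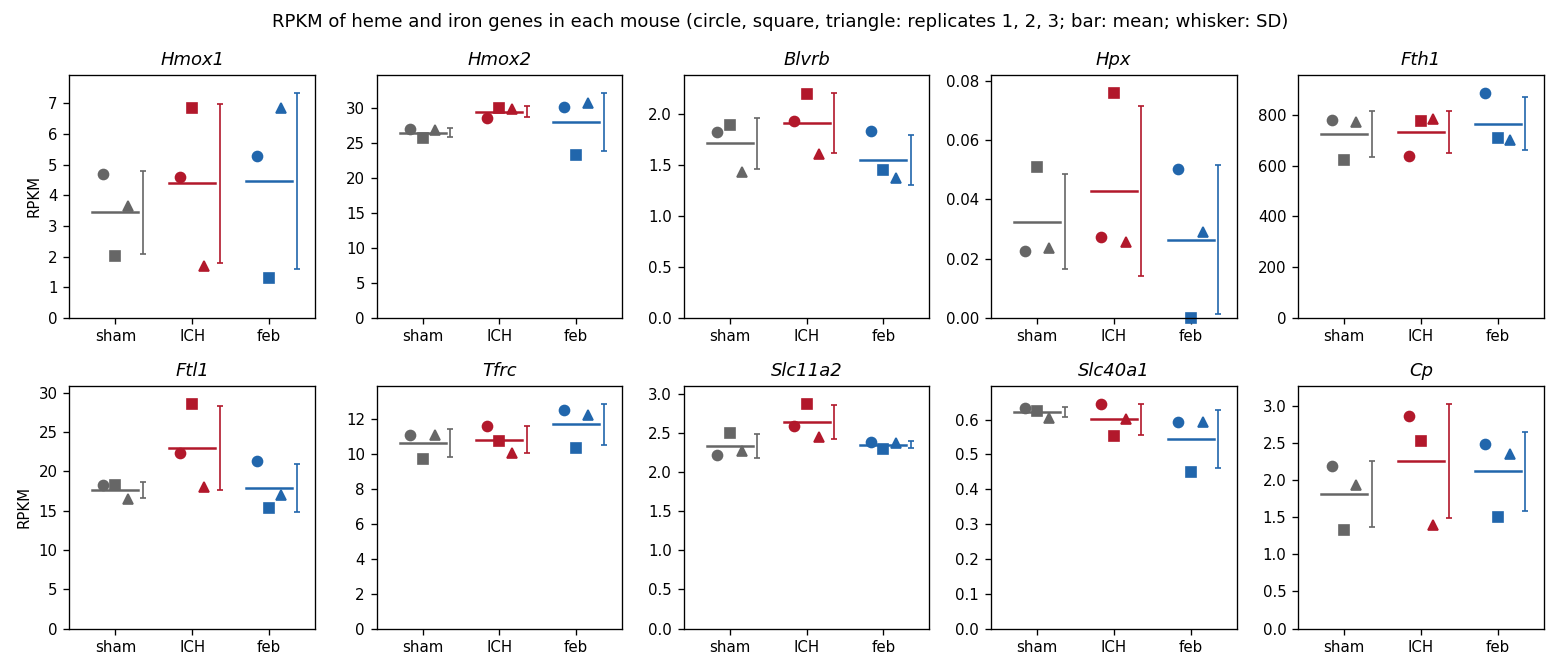
RPKM (y axis, from 0, scaled per gene) of the 10 genes in each mouse, by group (x axis). Circles, squares, and triangles are replicates 1, 2, and 3, horizontal bars are group means, and whiskers are SDs. Hmox1 and Cp spread widely inside each group, Hmox1 from 1.29 to 6.86 within feb, and the groups overlap for most genes.

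Fth1 (chr19:9982703-9985092, plus strand), the heavy chain whose ferroxidase site loads iron into the shell, was the most abundant of the 10 genes. Its RPKM was 780, 621, and 772 in sham, 638, 776, and 783 in ICH, and 887, 708, and 701 in feb. Each group held a mouse at or below 708, and the groups overlapped. Fth1 had a log2 fold change of 0.02 in ICH vs sham (SE 0.15, adjusted p = 0.974, limma), an interval of 0.800-fold to 1.28-fold. It was 0.06 in feb vs ICH and 0.08 in feb vs sham. The sign in ICH vs sham turned under equal medians (-0.09) and voom (-0.05), whereas quantile normalization gave 0.36 with an unadjusted p under 0.05 and an adjusted p of 0.381.

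Ftl1 (chr7:45457944-45459884, minus strand), the light chain that favors mineral formation inside the shell, had the largest fold change of the set in ICH vs sham. Its RPKM was 18.2, 18.3, and 16.5 in sham. It was 22.3, 28.6, and 17.98 in ICH and 21.3, 15.4, and 17.1 in feb. ICH replicates 1 and 2 were above every sham mouse, but ICH replicate 3 was inside the sham range. Ftl1 had a log2 fold change of 0.35 in ICH vs sham (SE 0.17, adjusted p = 0.432, limma), with an interval of 0.969-fold to 1.68-fold. It was -0.35 in feb vs ICH (SE 0.17, adjusted p = 0.494) and 0.01 in feb vs sham (SE 0.17, adjusted p = 0.994). Without ICH replicate 3 the unadjusted p was under 0.05 in ICH vs sham (log2 0.52, adjusted p = 0.348) and in feb vs ICH (log2 -0.51, adjusted p = 0.372). Without feb replicate 1 it was under 0.05 in feb vs ICH (log2 -0.48, adjusted p = 0.443). Without ICH replicate 2, the mouse with the highest Ftl1, the log2 fold change was 0.18 in ICH vs sham (adjusted p = 0.715) and -0.17 in feb vs ICH (adjusted p = 0.824).

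Reads of Ftl1 were the least certain of the set. Of its 100-base stretches, 34.4% also occur in 4 other annotated genes, Ftl1-ps1, Ftl2-ps, Gm15590, and Gm22133, against 0.21% for Fth1 and 0 for the other 8 genes. Gm22133 lies inside Ftl1 on the same strand and was listed with 114 to 229 reads per mouse, equal to 20.3% to 26.3% of the Ftl1 reads. With those reads and their 109 bases removed, an alternative chosen after the data were seen, the log2 fold change of Ftl1 was 0.32 in ICH vs sham, -0.35 in feb vs ICH, and -0.03 in feb vs sham. Ftl1-ps1 had at most 4.23% of the Ftl1 reads. On the opposite strand 26.5% of the Ftl1 exon bases lie against exons of Gm10252, which had an RPKM of 6.72 to 11.4.

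The balance of the chains within a mouse was also compared, although the Ftl1 level depends on how its shared reads were counted. The log2 ratio of Fth1 to Ftl1 averaged 5.34 in sham (SD 0.240, n = 3), 5.01 in ICH (SD 0.374, n = 3), and 5.41 in feb (SD 0.0891, n = 3). The exact permutation p (two-sided) was 0.3 in ICH vs sham, 0.3 in feb vs ICH, and 0.9 in feb vs sham, and 1 in each case after adjustment over the 9 ratio tests. Over the 9 mice the chains had a Pearson r of 0.16 (exact permutation p = 0.688, adjusted 0.786) and a Spearman rho of 0.07 (exact permutation p = 0.880). Leaving out the 2 mice with the most extreme Ftl1 gave an r of 0.51, and centred within groups it was 0.27.

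Tfrc (chr16:32608920-32632794, plus strand), the receptor that brings transferrin iron into cells, was among the most even of the 9 tested genes. Its RPKM was 11.1, 9.71, and 11.1 in sham, 11.6, 10.7, and 10.1 in ICH, and 12.5, 10.3, and 12.2 in feb. The 9 values spanned a narrow range and the groups overlapped. The SD within groups was 0.123 on the log2 scale, and 38.0% of the 2985 tested genes of like level had a smaller SD. Tfrc had a log2 fold change of 0.02 in ICH vs sham (SE 0.10, adjusted p = 0.942, limma), an interval of 0.862-fold to 1.20-fold. It was 0.11 in feb vs ICH (adjusted p = 0.711) and 0.13 in feb vs sham (adjusted p = 0.725). The ratio of Tfrc to Fth1, whose mRNAs respond to iron by different routes through the stem-loops shown above, averaged -6.07 on the log2 scale in sham (SD 0.0751, n = 3). It averaged -6.07 in ICH (SD 0.264, n = 3) and -6.02 in feb (SD 0.165, n = 3), and the exact permutation p (two-sided) was 1 in ICH vs sham, 0.7 in feb vs ICH, and 0.7 in feb vs sham.

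Brain endothelium is rich in Tfrc, and its markers had lower sums in the feb mice, a difference that was not tested. For single genes, feb was lower without overlap in 10.1% of all genes tested against ICH and in 4.9% against sham. The 6 endothelium markers summed to 33.2 to 41.6 in sham, 33.1 to 41.4 in ICH, and 24.4 to 31.6 in feb. Their mean log2 level and Tfrc had a Pearson r of -0.50 over the 9 mice (exact permutation p = 0.169, adjusted 0.271) and a Spearman rho of -0.33 (exact permutation p = 0.385). Without the 2 mice farthest from the median r was 0.38, and centred within groups it was -0.16, so the sign rested on those mice, feb replicates 1 and 3.

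Slc11a2 (chr15:100387898-100425072, minus strand), which moves ferrous iron across membranes, was 2.22, 2.50, and 2.27 in sham, 2.58, 2.87, and 2.45 in ICH, and 2.38, 2.29, and 2.37 in feb. All feb mice were below all ICH mice, and the gap between the nearest mice was small. Feb and ICH did not overlap in 17.2% of all genes tested, and in 10.1% feb was the lower group. The log2 fold change was 0.17 in ICH vs sham (SE 0.11, adjusted p = 0.520, limma) and -0.16 in feb vs ICH (SE 0.11, adjusted p = 0.614). It was 0.01 in feb vs sham. The SD within groups was 0.0837 on the log2 scale, smaller than in all but 4.25% of the 4028 tested genes of like level.

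Slc40a1 (chr1:45908068-45926523, minus strand), ferroportin, the known cellular iron exporter, was the lowest of the tested genes. Its RPKM was 0.632, 0.625, and 0.605 in sham, 0.644, 0.553, and 0.602 in ICH, and 0.592, 0.449, and 0.593 in feb. All feb mice were below all sham mice. Those groups did not overlap in 12.7% of all genes tested, and in 4.9% feb was the lower group. The log2 fold change was -0.17 in feb vs sham (SE 0.18, adjusted p = 0.801, limma), -0.04 in ICH vs sham, and -0.13 in feb vs ICH. With 9000 exon bases these values still rest on 102 to 168 reads per mouse. The mean log2 level of choroid plexus markers and Slc40a1 had a Pearson r of 0.55 over the 9 mice (exact permutation p = 0.0923, adjusted 0.185) and a Spearman rho of 0.65 (exact permutation p = 0.0666). Without the 2 mice farthest from the median r was 0.13, and centred within groups it was 0.14, so the relation rested on those mice, feb replicates 1 and 2.

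Cp (chr3:19957054-20009145, plus strand), the copper ferroxidase that oxidizes exported iron, spread widely within groups. Its RPKM was 2.19, 1.33, and 1.94 in sham, 2.86, 2.53, and 1.40 in ICH, and 2.49, 1.51, and 2.36 in feb. Each group held a mouse at or below 1.51. Cp had a log2 fold change of 0.27 in ICH vs sham (SE 0.31, adjusted p = 0.713, limma), an interval of 0.740-fold to 1.96-fold, with -0.06 in feb vs ICH and 0.21 in feb vs sham. With single mice left out, the value in ICH vs sham ran from 0.07 (without sham replicate 2) to 0.57 (without ICH replicate 3). Cp is also made by choroid plexus. The choroid plexus markers and Cp had a Pearson r of 0.16 over the 9 mice (exact permutation p = 0.663, adjusted 0.786) and a Spearman rho of 0.28 (exact permutation p = 0.463), r was 0.24 without the 2 mice farthest from the median, and centred within groups it was 0.71. Cp in the feb mice, whose choroid plexus markers were low, lay inside the range of the other mice. How much of Cp came from choroid plexus was not tested.

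In order of mean RPKM the genes ranked Fth1 (741), Hmox2 (28.0), Ftl1 (19.5), Tfrc (11.0), Hmox1 (4.10), Slc11a2 (2.44), Cp (2.07), Blvrb (1.73), Slc40a1 (0.588), and Hpx (0.0339). The first 4 steps, from Fth1 to Hmox1, held in 9 of 9 mice, as did those from Blvrb to Slc40a1 and on to Hpx. The places of Hmox2 and Ftl1 assume that their reads were told apart from those of other genes, which could not be checked. Hmox1 exceeded Slc11a2 in 6 of 9 mice, and Slc11a2 exceeded Cp, and Cp exceeded Blvrb, in 7 of 9. The neighbours from Hmox1 to Blvrb could therefore not be ordered beyond the spread among mice.

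The genes whose pattern over the 9 mice was most like that of a heme or iron gene were sought among 17654 genes with a mean RPKM of 1 or more. Closest to Hmox1 were Tbc1d1 (Pearson r 0.96), Rps15a (0.96), and Atxn10 (0.96). Closest to Cp were Atxn10 (0.96), Ahnak (0.95), and Mir674 (0.95). Closest to Tfrc were Gm11696 (0.97), Ccdc81 (0.95), and Ift81 (0.94). These are the highest values of a search over many genes and 9 points that share library depth and dissection, and are given as a description.

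Among the 8 relations adjusted together, 3 were chosen after the values were seen, and their p-values do not account for that choice. The mice with the lowest Hmox1, sham replicate 2, ICH replicate 3, and feb replicate 2, were also those with the lowest Cp and the lowest Gfap, the intermediate filament gene of astrocytes. Gfap was 143, 57.3, and 88.1 in sham, 128, 573, and 63.3 in ICH, and 160, 54.5, and 137 in feb. Gfap was picked from a list of 6 astrocyte markers. With Gfap included, that list summed to 469, 399, and 404 in sham and 492, 938, and 432 in ICH. In feb the sum was 491, 350, and 468. Sham replicates 2 and 3 differed more in Gfap than in that sum, so Gfap does not stand for the list. A relation of Hmox1 to the whole list was not tested. Gfap and Hmox1 had a Pearson r of 0.83 over the 9 mice (exact permutation p = 0.0022, adjusted 0.0147) and a Spearman rho of 0.93 (exact permutation p = 0.00075, adjusted 0.0060). Without the 2 mice farthest from the median r was 0.93, and centred within groups it was 0.86. Hmox1 and Cp had a Pearson r of 0.89 (exact permutation p = 0.0037, adjusted 0.0147) and a Spearman rho of 0.75 (exact permutation p = 0.025), with 0.85 without 2 mice and 0.91 centred within groups.

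The third relation chosen after the values were seen was that of Ftl1 with microglia markers, and its p does not account for that choice. Those 6 markers summed to 42.1 to 54.3 in sham, 50.6 to 81.6 in ICH, and 40.3 to 51.3 in feb. Their mean log2 level and Ftl1 had a Pearson r of 0.83 (exact permutation p = 0.0064, adjusted 0.0171) and a Spearman rho of 0.73 (exact permutation p = 0.031). Without the 2 mice farthest from the median r was 0.63, and centred within groups it was 0.77. The mice share tissue and library preparation, and these relations were not tested in other samples.

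**Figure D3:**
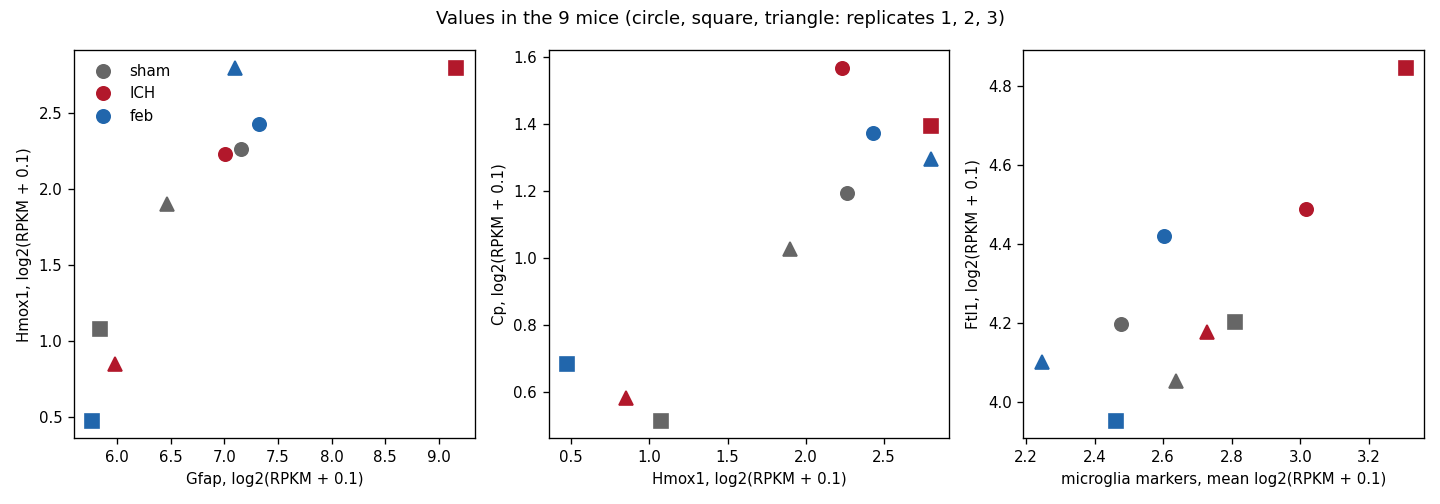
Log2(RPKM + 0.1) in the 9 mice: Hmox1 (y) against Gfap (x), Cp (y) against Hmox1 (x), and Ftl1 (y) against the mean of the microglia markers (x). Colors are groups, and circles, squares, and triangles are replicates 1, 2, and 3. In the first panel sham replicate 2, ICH replicate 3, and feb replicate 2 lie together at the low end (Hmox1 1.29 to 2.01 RPKM).

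The wider pathway was described with 6 lists of 54 further genes for heme scavenging, heme synthesis, bile pigments, iron uptake, the hepcidin axis, and iron storage and sensing. The table listed 50 of them, and 48 were tested. In ICH vs sham, 3 of 48 (6.25%, against 12.3% of all genes) had an unadjusted p under 0.05, 2 higher and 1 lower, and the smallest adjusted p (limma) was 0.367. The iron chaperone Pcbp1 was 48.7, 45.7, and 45.8 in sham and 50.1, 59.7, and 55.0 in ICH (log2 0.23, SE 0.08). Cd163, the macrophage receptor for hemoglobin bound to haptoglobin, was 0.812, 1.06, and 0.821 in sham and 1.99, 1.19, and 1.20 in ICH (log2 0.62, SE 0.26, adjusted p = 0.397). ICH replicate 1, the mouse with the highest blood markers, had the highest Cd163, and without it the log2 fold change of Cd163 was 0.38 (adjusted p = 0.616). Iscu, a scaffold for iron-sulfur clusters, was 43.0, 30.4, and 40.2 in sham and 31.0, 29.4, and 30.8 in ICH (log2 -0.30, SE 0.12). No gene of the heme synthesis, bile pigment, uptake, or hepcidin lists was among the 3. The Nrf2 gene Nfe2l2 and its antagonist Bach1, which control Hmox1, belong to the bile pigment list. Of its 4 tested genes, 0 had an unadjusted p under 0.05 in any comparison. The shares over all genes were 12.3% in ICH vs sham, 11.1% in feb vs ICH, and 8.54% in feb vs sham. A count of 0 among 4 genes cannot be told apart from those shares.

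In feb vs ICH, 6 of 48 genes (12.5%, against 11.1% of all genes) had an unadjusted p under 0.05, 1 higher and 5 lower, and the smallest adjusted p was 0.219. Steap1, of a family of metalloreductases, was 0.564, 0.690, and 0.416 in ICH and 0.110, 0.144, and 0.189 in feb (log2 -1.40, SE 0.28, adjusted p = 0.219, limma). Steap1 had only 4 to 25 reads per mouse, and its log2 fold change ran from -1.85 to -0.44 over the alternative settings. Its relative Steap3, the ferrireductase of endosomes, was 0.457, 0.732, and 0.388 in ICH and 0.271, 0.319, and 0.243 in feb (log2 -0.70, SE 0.26). Transferrin (Trf), the carrier of iron for Tfrc, was 66.5, 176, and 102 in ICH and 52.8, 79.0, and 33.1 in feb (log2 -1.04, SE 0.39), and those groups overlapped. Without ICH replicate 2 the fold change of Trf was -0.67 on the log2 scale. Bmp6, a signal for hepcidin in liver, was 3.9997, 2.35, and 2.08 in ICH and 1.25, 1.79, and 1.31 in feb (log2 -0.86, SE 0.27). Alad, of the heme synthesis pathway, was 3.75, 3.43, and 3.20 in ICH and 2.93, 2.84, and 2.78 in feb (log2 -0.27, SE 0.10). The mitochondrial iron importer Slc25a28 was 7.61, 6.83, and 6.91 in ICH and 8.01, 8.14, and 9.19 in feb (log2 0.24, SE 0.09). The choroid plexus markers were 30.6 to 88.4 in feb and 458 to 967 in ICH, and their part in these differences was not tested.

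In feb vs sham, 5 of 48 genes (10.4%, against 8.54% of all genes) had an unadjusted p under 0.05, all lower in feb, and the smallest adjusted p was 0.565. They were Steap1 (log2 -0.93, SE 0.28), Bmp6 (log2 -0.97, SE 0.27), Alad (log2 -0.34, SE 0.10), Hamp2 (log2 -1.45, SE 0.57), and Steap2 (log2 -0.55, SE 0.23). Bmp6 was 3.53, 2.29, and 3.06 in sham. The hepcidin gene Hamp2 was 0.658, 0.338, and 1.26 in sham and 0.0667, 0.420, and 0.153 in feb, and those groups overlapped. The feb vs ICH and feb vs sham comparisons share the feb mice, so these lists are not independent.

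Hemoglobin RNA marks blood in the samples. Hba-a1 was 9.42, 11.1, and 11.0 in sham, 34.0, 6.74, and 6.44 in ICH, and 4.05, 5.07, and 3.79 in feb. Hbb-bs was 13.7, 17.5, and 19.5 in sham, 64.9, 14.0, and 12.6 in ICH, and 7.67, 7.74, and 7.34 in feb. Only ICH replicate 1 was above the sham mice, and all feb mice were below all others for both genes. Feb was the lower group without overlap in 10.1% of all genes tested against ICH and in 4.9% against sham. In feb vs ICH the log2 fold change was -1.40 for Hba-a1 (SE 0.55, adjusted p = 0.411, limma) and -1.56 for Hbb-bs (SE 0.53, adjusted p = 0.371). In ICH vs sham it was 0.12 for Hba-a1 (SE 0.55, adjusted p = 0.941) and 0.43 for Hbb-bs (SE 0.53, adjusted p = 0.736). Without ICH replicate 1 these turned to -0.66 for Hba-a1, with an unadjusted p under 0.05 and an adjusted p of 0.479, and -0.33 for Hbb-bs. In feb vs ICH, leaving out that mouse moved the fold changes to -0.61 for Hba-a1 and -0.80 for Hbb-bs.

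**Figure D4:**
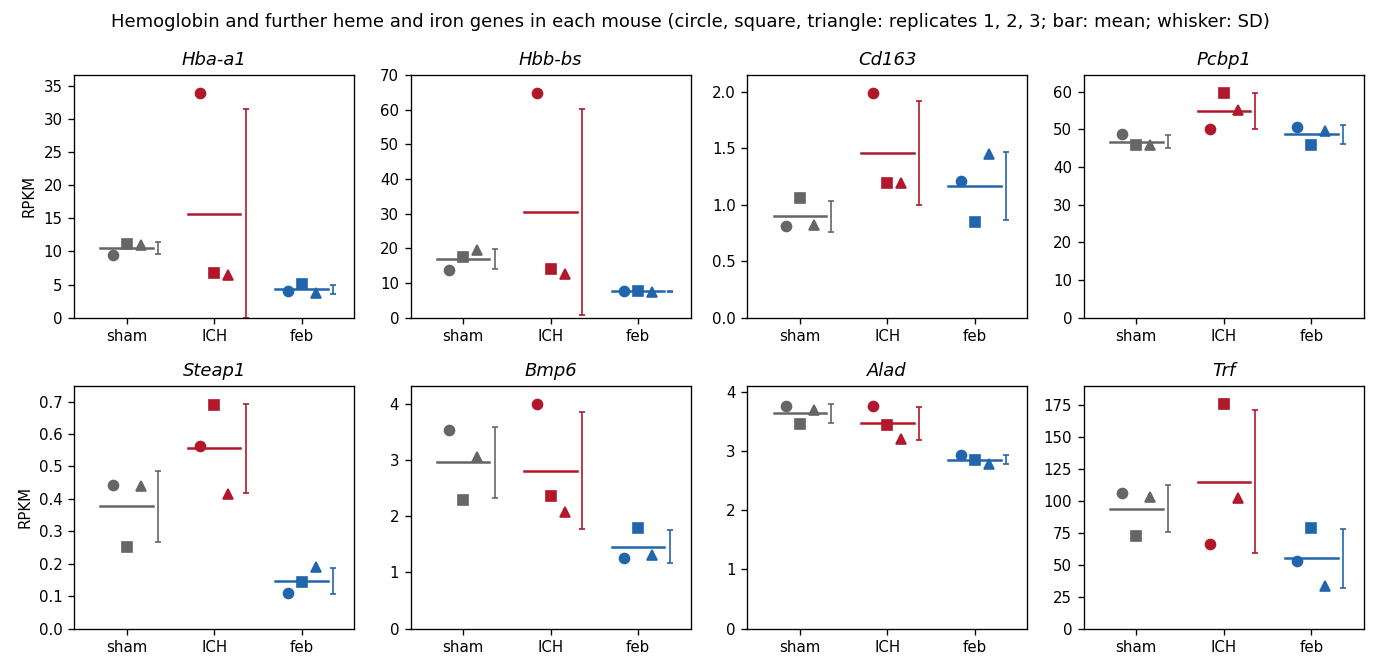
RPKM (y axis, from 0, scaled per gene) of hemoglobin genes and further heme and iron genes in each mouse, by group (x axis). Circles, squares, and triangles are replicates 1, 2, and 3, horizontal bars are means, and whiskers are SDs. One ICH mouse stands high in hemoglobin RNA (Hba-a1 34.0), and feb mice lie below both other groups for Hba-a1, Hbb-bs, Steap1, Bmp6, and Alad. Of all genes tested, 10.1% had feb below ICH without overlap, and 4.9% had feb below sham without overlap.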

How the data were processed

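The authors trimmed reads (Trimmomatic 0.36), collapsed UMIs, aligned to GRCm38, summed exon reads by gene with featureCounts (Subread 1.5.1), tested with edgeR (3.12.1), and deposited RPKM values for each mouse. The annotation release, the strand setting, and the rule for multi-mapping reads are not given in the sources used here. Per the labels a stranded kit with rRNA depletion was used.

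From the RPKM values, whole reads were recovered (100% of values within 0.01 of a whole read). The test was limma (3.58.1, R 4.3.3; lmFit and eBayes with trend) on log2(RPKM + 0.1), with all 9 mice in the fit, no block, and Benjamini-Hochberg adjustment over 29025 genes. Per the study each group had 3 mice, 1 sample each, so p-values measure the spread between mice. Ratios and relations were tested by exact permutation. Other steps used scipy 1.17.1 and pandas 2.3.3 (Python 3.11.15). The fit was first run on simulated data, with changes larger than any estimated for the 9 genes and the same spread setting for every gene. That run does not show whether small changes, or changes of a gene as variable as Hmox1, would be found. Batches are not given in the labels. Alternatives were other pseudocounts, filters, scalings, and fits, and each mouse left out. The genes, lists, and tests were chosen with earlier results of these data known. The rule for named genes took all 10 genes, list genes at an unadjusted p under 0.05 (at most 6 per comparison), the hemoglobins, and the 3 closest patterns of Hmox1, Cp, and Tfrc. Blvra was named outside that rule, to stand beside Blvrb.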

Additional observations from a re-analysis of the deposited data

How the results depend on the processing

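The number of the 9 genes with an unadjusted p under 0.05 was 0 in every comparison. In ICH vs sham it was 1 after quantile normalization (Fth1) and 1 in a fit of only those 2 groups (Hmox2). Leaving out each mouse gave 0 to 1 in each comparison. None of the 9 genes passed adjustment in any of these settings. Of 513 refitted fold changes, 41 changed sign, and the cause was not tested. All 27 fold changes were short of the threshold in the fit of the report, so every sign change was of such a value. Some settings cannot move a fold change: a filter, another estimate of the spread, the replicate block, or a mouse left out of the group not compared. The 513 include those settings. Under equal medians, log2 fold changes in feb vs sham were -0.0395 for Hmox2, -0.0318 for Fth1, -0.10 for Ftl1, and -0.0975 for Slc11a2, and in ICH vs sham -0.0907 for Fth1 and -0.0848 for Tfrc. Under quantile normalization they were -0.0119 for Ftl1 and -0.0831 for Slc11a2 in feb vs sham, -0.0884 for Fth1 in feb vs ICH, and -0.0233 for Tfrc in ICH vs sham. Under voom they were -0.0519 for Fth1 and -0.0461 for Tfrc in ICH vs sham, and -0.0460 for Ftl1 and -0.0410 for Slc11a2 in feb vs sham. Without the reads of Gm22133, Ftl1 was -0.0309 in feb vs sham. With single mice left out, values in ICH vs sham ranged from -0.21 to 0.77 for Hmox1, -0.0904 to 0.11 for Fth1, -0.0413 to 0.0718 for Tfrc, and -0.0887 to 0.0054 for Slc40a1. In feb vs ICH they ranged from -0.61 to 0.65 for Hmox1, -0.15 to 0.0465 for Hmox2, -0.0489 to 0.12 for Fth1, and -0.36 to 0.15 for Cp. In feb vs sham they ranged from -0.30 to 0.87 for Hmox1, -0.0320 to 0.14 for Fth1, -0.12 to 0.11 for Ftl1, and -0.0204 to 0.0626 for Slc11a2. None of 72 refitted log2 ratio differences moved by more than 1 SD pooled over the groups compared. Leaving a single mouse out of a group of 3 cannot exceed that limit, so for those refits the count does not measure stability. The Hmox1 to Hmox2 difference in ICH vs sham ran from -0.35 (without ICH replicate 2) to 0.62 (without ICH replicate 3).

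Of the 48 genes of the wider lists, the 3 in ICH vs sham became 5 in a fit of only those groups, 1 with the replicate block, and 0 to 7 with single mice left out. The 6 of feb vs ICH became 3 to 8 with single mice left out. The 5 of feb vs sham became 2 among genes at an RPKM of 1 or more (36 tested), 8 with voom, and 3 to 9 with single mice left out. These settings were added for the lists after the data were seen. Same-numbered mice of different groups did not deviate together (correlations of -0.13 to 0.02), and with the replicate block 0 of the 9 genes had an unadjusted p under 0.05 in each comparison. The block lowered the number over all genes from 3570 to 2771 in ICH vs sham. Hpx, with at most 3 reads, could not be assessed.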
